A study of Mus musculus with 2 samples.

Results

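The genes described here handle iron and heme in liver cells. They are 8 genes chosen by name (Cd163, Hmox1, Blvrb, Fth1, Ftl1, Slc40a1, Tfrc and Slc11a1) out of the 27998 genes in the count tables. All 8 were found. The study sequenced the RNA of single non-parenchymal liver cells (the cells left when hepatocytes are removed, here by perfusion and a density gradient) with 10x Genomics 3′ chemistry. It holds 2 libraries, 1 from the genotype labelled PKM2FL/FL and 1 from the genotype labelled PKM2ΔMAC. Mice of both genotypes ate the diet labelled MCD, the usual name of a methionine- and choline-deficient feed that gives mice fatty, inflamed livers, for 8 weeks, and no library without this diet was analysed. The Cre driver and the number, age and sex of the mice are not stated by the labels, which also leave the kit version undecided. With 1 library per genotype there is no replicate and no test. Each interval below is an exact 95% interval that covers counting error only, and each difference is one between these libraries.

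Macrophages of the liver and spleen take up old red cells and haemoglobin, break the heme down and return the iron to the blood. Cd163 is the scavenger receptor for haemoglobin bound to haptoglobin. Hmox1 opens the heme ring to biliverdin, carbon monoxide and iron, and Blvrb is a biliverdin and flavin reductase. Fth1 and Ftl1 are the heavy and light chains of ferritin, the shell that stores iron in the cytosol. Slc40a1, known as ferroportin, is the iron exporter, Tfrc is the transferrin receptor that brings iron in, and Slc11a1 (Nramp1) pumps metal ions out of the phagosome.

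Several of these messages carry an iron-responsive element, a short hairpin to which the iron regulatory proteins bind when cellular iron is low. A hairpin in the 5′ UTR lets bound protein block translation, and hairpins in the 3′ UTR let it stabilise the message, so that RNA levels follow iron more directly for Tfrc than for ferritin. The sites are shown because they mark which of the 8 messages carry this control and in which UTR. A search of GENCODE M21 transcripts (mm10) for the letters CNNNNNCAGTGN, with 5 paired bases on either side of the loop and a last loop base other than G, found them in 4 of the 8 genes. The search ran on the transcript strand only. Capitals mark the hairpin's loop, and each site is written 5′ to 3′ on the strand of its gene.
Slc40a1 5′ UTR, chr1:45925464-45925493, minus strand: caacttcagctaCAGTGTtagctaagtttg
Fth1 5′ UTR, chr19:9982732-9982761, plus strand: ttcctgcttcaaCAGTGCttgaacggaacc
Ftl1 5′ UTR, chr7:45459778-45459807, minus strand: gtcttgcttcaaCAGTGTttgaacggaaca
Tfrc 3′ UTR, chr16:32631219-32631248, plus strand: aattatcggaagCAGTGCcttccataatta
Tfrc 3′ UTR, chr16:32631598-32631627, plus strand: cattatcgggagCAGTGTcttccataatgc
Tfrc 3′ UTR, chr16:32631663-32631692, plus strand: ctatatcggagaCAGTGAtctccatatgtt
Tfrc 3′ UTR, chr16:32631710-32631739, plus strand: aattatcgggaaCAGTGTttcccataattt
Hmox1, Cd163, Slc11a1 and Blvrb held no match, which says only that these letters with that pairing were not found in their UTRs. Of 21875 genes, each searched in its longest protein-coding transcript only, 17 (0.0777%) matched in the 5′ UTR and 91 (0.416%) in the 3′ UTR. The 8 genes were searched in every protein-coding transcript of GENCODE's basic set, so these searches are not fully alike. The genes lie, in mm10, at chr6:124304656-124330527 (Cd163), chr8:75093621-75100589 (Hmox1), chr7:27447978-27466144 (Blvrb), chr19:9980598-9985098 (Fth1), chr7:45457944-45459884 (Ftl1), chr1:45908068-45926523 (Slc40a1), chr16:32608920-32632794 (Tfrc) and chr1:74375195-74386062 (Slc11a1).

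The PKM2FL/FL library held 10054 barcodes and 54519921 UMIs (molecules counted once), and the PKM2ΔMAC library 8949 barcodes and 43134027 UMIs. After filters and removal of predicted doublets, 9503 and 8547 cells were kept, of which 11.43% and 12.05% fell in no gate. The libraries shared 17 barcodes. A cell entered the gate (cell type) whose markers it showed most, with at least 3 of 8 detected (5 markers for T-like and 7 for B-like cells), and none of the 8 genes served as a marker. Own markers were among the 10 leading genes of all 16 gates, which gating on them favours, so it is no separate check of identity. They numbered from 2 (cDC1-like and mesothelial-like) to 7 (Kupffer-like and basophil or mast-like). A marker of another gate was among the leading genes of mesothelial-like (Dcn) and plasma-like cells (Spp1). Pkm stood at 259 and 172 CPM (UMIs per 1000000 UMIs of the cells) over all kept cells, but the labels do not say which exon was removed and 3′ counts can lie outside it, so Pkm does not check the genotype. Lyz2 stood at 1216 and 4.73 CPM.

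In 15 of the 16 gates each library had at least 20 cells, and those gates were compared. The lipid-associated macrophage-like gate (20 and 3 cells) is given as levels only. Of the 120 pairs of a gene and a gate, 72 had the 20 UMIs over both libraries required for a ratio of PKM2ΔMAC over PKM2FL/FL. A pair was called when the ratio was at least 1.5-fold from 1 and its counting interval excluded 1. By that rule 9 pairs were called lower, 3 were called higher and 60 were not called. Over all genes and the same gates, 8.32% of pairs were called lower and 3.83% higher, so the shares for these genes can be read against those: 9 and 3 of 72. The 12 called pairs were Hmox1 in 5 gates, Slc40a1 in 2, Blvrb in 2, and Ftl1, Tfrc and Slc11a1 in 1 each. None was in Kupffer-like cells, where 7 of the 8 genes had a ratio and where 6.74% of all genes were called lower and 4.57% higher. None was in 7 other gates either. Of all genes, 6.76% were called lower and 3.9% higher in cDC1-like, 6.9% and 4.4% in plasmacytoid dendritic-like, 6.68% and 5.65% in basophil or mast-like and 12.5% and 5.92% in plasma-like cells. The shares were 5.36% and 2.69% in NK or innate lymphoid-like, 5.47% and 7.0% in smooth muscle or fibroblast-like and 6.71% and 6.09% in mesothelial-like cells.

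**Figure D1:**
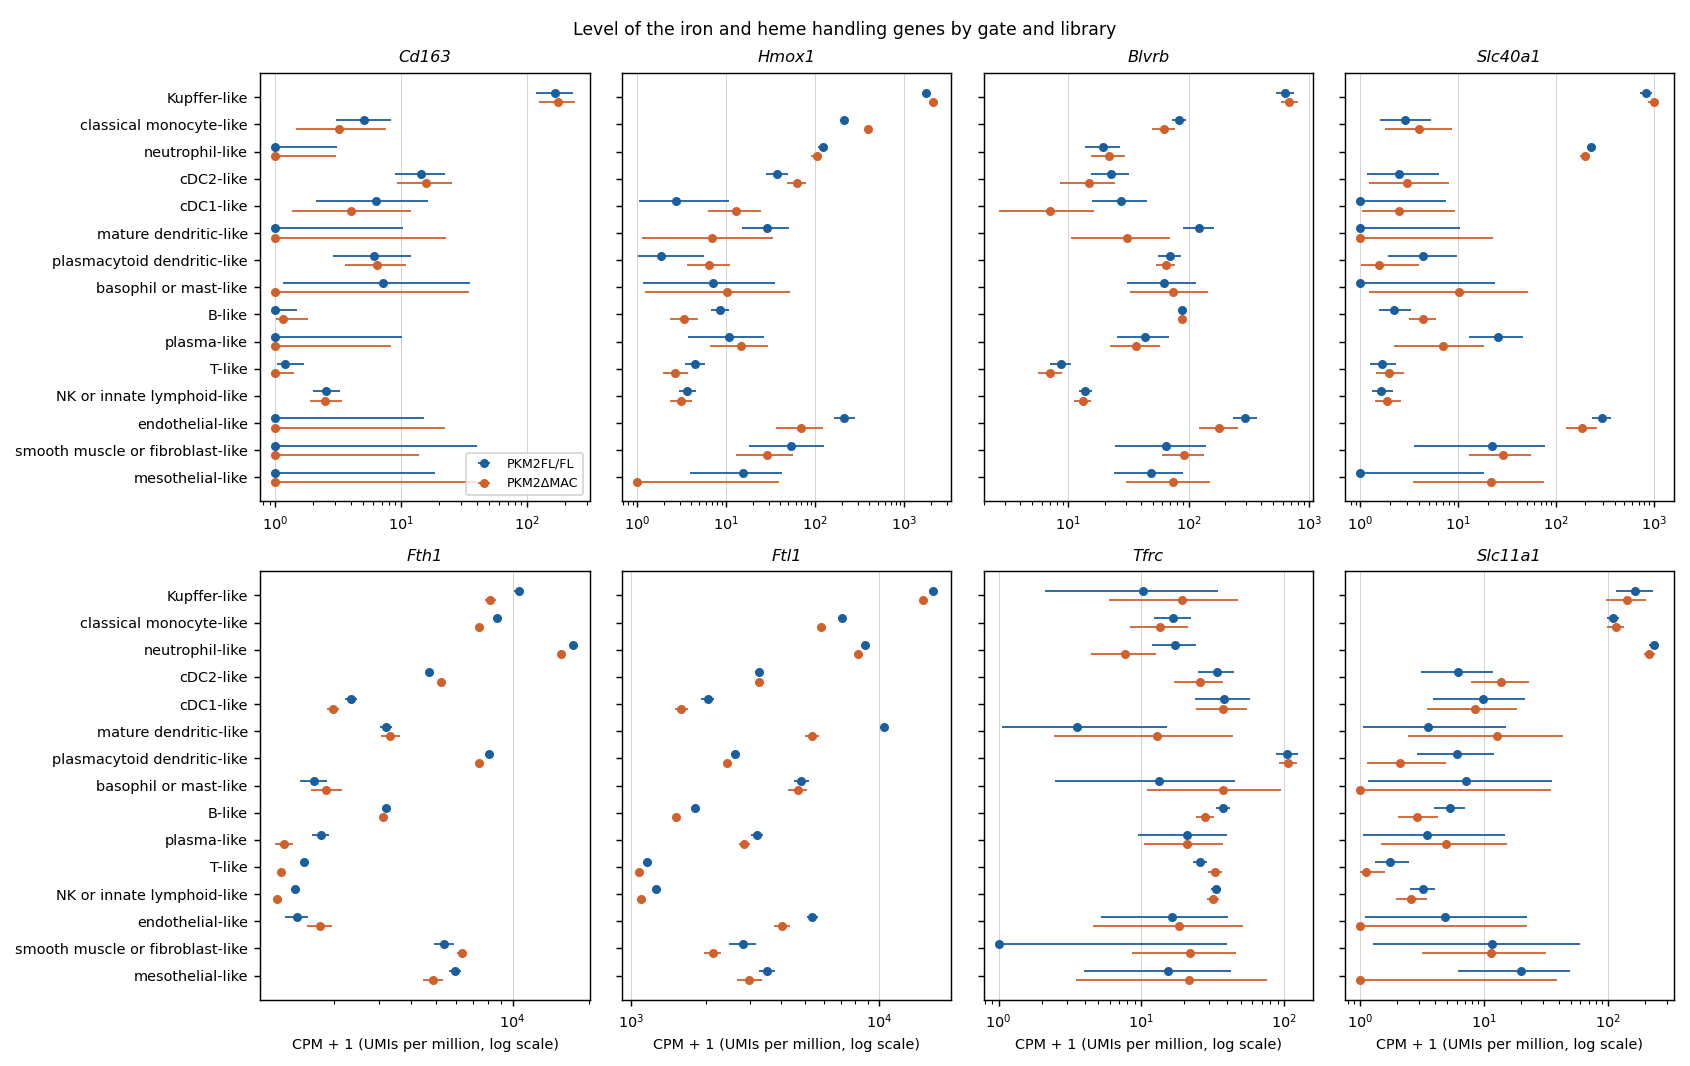
Level of each gene in the 15 compared gates, as CPM + 1 on a log axis, 1 panel per gene. Points are the PKM2FL/FL (blue) and PKM2ΔMAC (orange) libraries and bars are exact Poisson 95% intervals. Cd163, Hmox1, Blvrb, Slc40a1 and Ftl1 are highest in Kupffer-like cells, Fth1 and Slc11a1 in neutrophil-like cells and Tfrc in plasmacytoid dendritic-like cells, in both libraries.

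Cd163, the haemoglobin receptor, was highest in Kupffer-like cells, the resident macrophages of the liver. It stood at 166 CPM (36 UMIs) in PKM2FL/FL and 174 CPM (38 UMIs) in PKM2ΔMAC there, a ratio of 1.05 (0.647 to 1.70). The levels overlap within counting error, but a single PKM2ΔMAC cell held 17 of the 38 UMIs, and without the 3 leading cells of each library the ratio was 0.618 (0.303 to 1.22). The next gate, cDC2-like cells (dendritic cells that present antigen to helper T cells), was at 13.4 and 14.8 CPM, and all other compared gates lay under 7 CPM. By number, Kupffer-like cells held 32.4% and 39.2% of all Cd163 UMIs, the many NK or innate lymphoid-like cells 23.4% and 17.5%, and cDC2-like cells 16.2% and 15.5%. In 6 gates Cd163 had no UMI in either library. Among them neutrophil-like cells give the tightest limit, since 3 counts would amount to 1.68 and 1.67 CPM. A Cd163 UMI was seen in 16.3% and 14.4% of Kupffer-like cells (7.75% and 5.08% after thinning every cell to 500 UMIs), against 0 of 2171 and 1 of 2380 B-like cells. Median depth was 1127 and 1180 UMIs in Kupffer-like cells and 3166 and 2731 in B-like cells.

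Hmox1, the heme-degrading enzyme, was highest in Kupffer-like cells, and was called higher in 2 gates and lower in 3. In Kupffer-like cells it stood at 1735 CPM (377 UMIs) in PKM2FL/FL and 2076 CPM (454 UMIs) in PKM2ΔMAC, a ratio of 1.20 (1.04 to 1.38) that was not called. In cells of the classical monocyte-like gate, the blood monocytes that can turn into macrophages, it stood at 210 CPM (563 UMIs, 294 cells) and 392 CPM (528 UMIs, 165 cells). The PKM2ΔMAC monocytes were higher, with a ratio of 1.87 (1.65 to 2.10), where 5.96% of all genes were called lower and 4.08% higher. A Hmox1 UMI was found in 45.6% and 59.4% of the monocyte-like cells, and in 5.78% and 13.9% after thinning, against 1.29% and 0.672% of B-like cells. The median monocyte-like cell was deeper in PKM2FL/FL (8844.5 against 7906 UMIs). The single leading cell held 71 UMIs in one library and 81 in the other, and without the 3 leading cells of each the ratio was 1.89 (1.64 to 2.19). A large part of the UMIs lay in the 10 leading cells of 294 in PKM2FL/FL and the 8 leading cells of 165 in PKM2ΔMAC. The counting interval does not cover this uneven spread.

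The markers of other cells in the monocyte-like gate moved both ways. The 8 Kupffer-like markers summed to 110 CPM (7 detected, Timd4 at 0) in PKM2FL/FL and 23.0 CPM (6 detected, Timd4 and Vsig4 at 0) in PKM2ΔMAC, opposite in direction to Hmox1. The 8 cycling genes summed to 26.1 and 90.6 CPM, and the 7 erythroid genes to 21.3 and 26.0 CPM, and their part in the Hmox1 difference was not tested. Hmox1 was also called higher in cDC2-like cells, at 36.5 and 61.2 CPM (49 and 62 UMIs), with a ratio of 1.68 (1.14 to 2.50). There 8.25% of all genes were called lower and 3.93% higher. In PKM2FL/FL 42.9% of these UMIs lay in 1 cell, and without the leading cell of each library the ratio was 2.43. With clusters in place of gates it was 1.40 and not called. The 8 lipid-associated macrophage markers moved with Hmox1 in this gate, at 37.9 CPM (7 detected, Atp6v0d2 at 0) and 87.9 CPM (6 detected, Gpnmb and Atp6v0d2 at 0), the Kupffer-like markers went the other way (61.0 and 27.7 CPM), and the part of these markers was not tested.

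Hmox1 was called lower in endothelial-like, B-like and T-like cells. In endothelial-like cells, which line the sinusoids, it stood at 211 CPM (55 UMIs, 63 cells) and 69.0 CPM (12 UMIs, 109 cells), a ratio of 0.327 (0.159 to 0.617). There 4.16% of all genes were called lower and 4.91% higher. A single PKM2FL/FL cell held 22 of the 55 UMIs, and without the 3 leading cells of each library the ratio was 0.537 (0.205 to 1.26) and the call was lost. In B-like cells the level was 7.62 CPM (57 UMIs) and 2.33 CPM (16 UMIs), and in T-like cells 3.46 CPM (37 UMIs) and 1.70 CPM (16 UMIs). The ratios were 0.305 (0.164 to 0.539) and 0.492 (0.256 to 0.907). The lipid-associated macrophage markers in B-like cells summed to 25.7 and 5.82 CPM and the Kupffer-like markers to 31.2 and 20.5 CPM, moving with Hmox1. The 7 erythroid genes moved with it too, at 318 CPM (5 detected) and 131 CPM (6 detected) in B-like cells and 49.6 and 8.62 CPM (4 detected in each) in T-like cells. In T-like cells the lipid-associated macrophage markers summed to 10.9 CPM (8 detected) and 8.62 CPM (7 detected) and the Kupffer-like markers to 8.04 CPM (7 detected) and 9.05 CPM (8 detected). The part of these genes in either call was not tested. The background was 6.26% lower and 2.88% higher in B-like cells and 10.7% lower and 2.59% higher in T-like cells. The T-like call was lost without the leading cell of each library (ratio 0.551), when centred on all genes (0.547) and with at least 2 markers in place of 3 (0.648). The B-like call was lost with a lead of at least 2 markers (0.664), and with clusters in place of gates the B-like ratio turned to 1.21. Neutrophil-like cells held Hmox1 at 121 and 102 CPM (217 and 184 UMIs), a ratio of 0.844 (0.690 to 1.03).

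Among the compared gates Blvrb, the biliverdin and flavin reductase, was highest in Kupffer-like cells. It stood there at 631 CPM (137 UMIs) in PKM2FL/FL and 681 CPM (149 UMIs) in PKM2ΔMAC. The ratio was 1.08 (0.851 to 1.37). Endothelial-like cells came next, at 292 and 178 CPM (76 and 31 UMIs), and were called lower at 0.611 (0.389 to 0.938). Mature dendritic-like cells, the migrating form that carries antigen to lymph nodes, were at 120 and 29.5 CPM (47 and 5 UMIs) and were called lower at 0.247 (0.0765 to 0.617). There 7.78% of all genes were called lower and 5.1% higher. In PKM2FL/FL 31.9% of the mature dendritic UMIs came from 1 cell, and without the 3 leading cells of each library the interval reached 1.12. B-like cells held Blvrb at 87.2 and 86.7 CPM (652 and 596 UMIs), with a ratio of 0.994 (0.888 to 1.11). A Blvrb UMI was found in 24.0% and 21.8% of B-like cells but in 4.71% and 3.70% of T-like cells, whose median depth was greater (5604 and 6094 UMIs).

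The ferritin chains were detected in every gate and led in different cells. Fth1, the heavy chain with the ferroxidase site, was highest in neutrophil-like cells, at 17320 CPM in PKM2FL/FL and 15430 CPM in PKM2ΔMAC, followed by Kupffer-like cells (10560 and 8186 CPM), classical monocyte-like cells (8725 and 7380 CPM) and plasmacytoid dendritic-like cells (8097 and 7385 CPM). The last 3 overlap between libraries. Ftl1, the light chain that helps form the mineral core, was highest in Kupffer-like cells (16440 and 15080 CPM), ahead of mature dendritic-like cells (10440 and 5339 CPM), neutrophil-like cells (8775 and 8214 CPM) and classical monocyte-like cells (7044 and 5843 CPM). Ftl1 was lowest in T-like (1160 and 1074 CPM) and NK or innate lymphoid-like cells (1257 and 1096 CPM), and Fth1 in NK or innate lymphoid-like cells (1406 and 1197 CPM), in both libraries. The 20 lipid-associated macrophage-like cells of the PKM2FL/FL library stood above every compared gate, at 37500 CPM for Fth1 and 24180 CPM for Ftl1. The 3 PKM2ΔMAC cells in that gate were at 3514 and 3844 CPM, and no comparison was made. These 3 cells had no Gpnmb UMI, and the gate's 8 markers summed to 24230 CPM in them against 5389 CPM in PKM2FL/FL. The cells of the libraries may thus be unlike, and the keratin genes Krt8 and Krt18 were among the gate's 10 leading genes. Reads of Fth1 and Ftl1 are uncertain to the extent that near-identical pseudogene copies share them.

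All 15 Fth1 ratios were within 1.5-fold of 1 (0.719 to 1.23), with 10 below 1 and 5 above. Other ways of forming the gates moved a pair of them past that: endothelial-like cells (1.23) to 0.661 with clusters, called lower, and plasma-like cells (0.719) to 1.58 with a lead of at least 2 markers, called higher. For Ftl1 14 of 15 ratios were below 1 (median log2 ratio −0.20). The median log2 ratio over all genes was also below 0 in every compared gate but endothelial-like (0.008) and smooth muscle or fibroblast-like cells (0.064). Among the Ftl1 ratios 1 was called lower. That call was in mature dendritic-like cells, at 10440 and 5339 CPM (4106 and 906 UMIs, 54 and 20 cells), with a ratio of 0.511 (0.475 to 0.550), and it held without the 3 leading cells of each library (0.464). In that gate the lipid-associated macrophage markers went from 81.4 CPM (4 of 8 detected) to 35.4 CPM (2 of 8) and the neutrophil-like markers from 25.4 CPM (6 of 8) to 5.89 CPM (1 of 8), in the direction of Ftl1 and Blvrb, with Trem2 and Ly6g at 0 in both libraries. The monocyte-like markers went the other way, from 99.2 to 271 CPM. So did the NK or innate lymphoid-like markers, from 201 to 442 CPM, and the 8 cycling genes, from 30.5 CPM (4 detected) to 295 CPM (7 detected). The part of these genes was not tested. The median log2 ratio over all genes was lowest in neutrophil-like cells (−0.35), where Fth1 at 0.891 and Ftl1 at 0.936 turned to 1.13 and 1.19 when centred on it. In Kupffer-like cells Fth1 was at 10560 CPM (2294 UMIs) and 8186 CPM (1790 UMIs), a ratio of 0.775 (0.728 to 0.825). A single PKM2FL/FL cell held 245 of those UMIs, and the ratio was 0.845 without the leading cell of each library. The median over Kupffer-like cells went the other way, at 81.6 and 94.0 Fth1 UMIs per 10000. Summed and median levels of Fth1 thus order the libraries differently, as the plot of single cells shows.

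**Figure D2:**
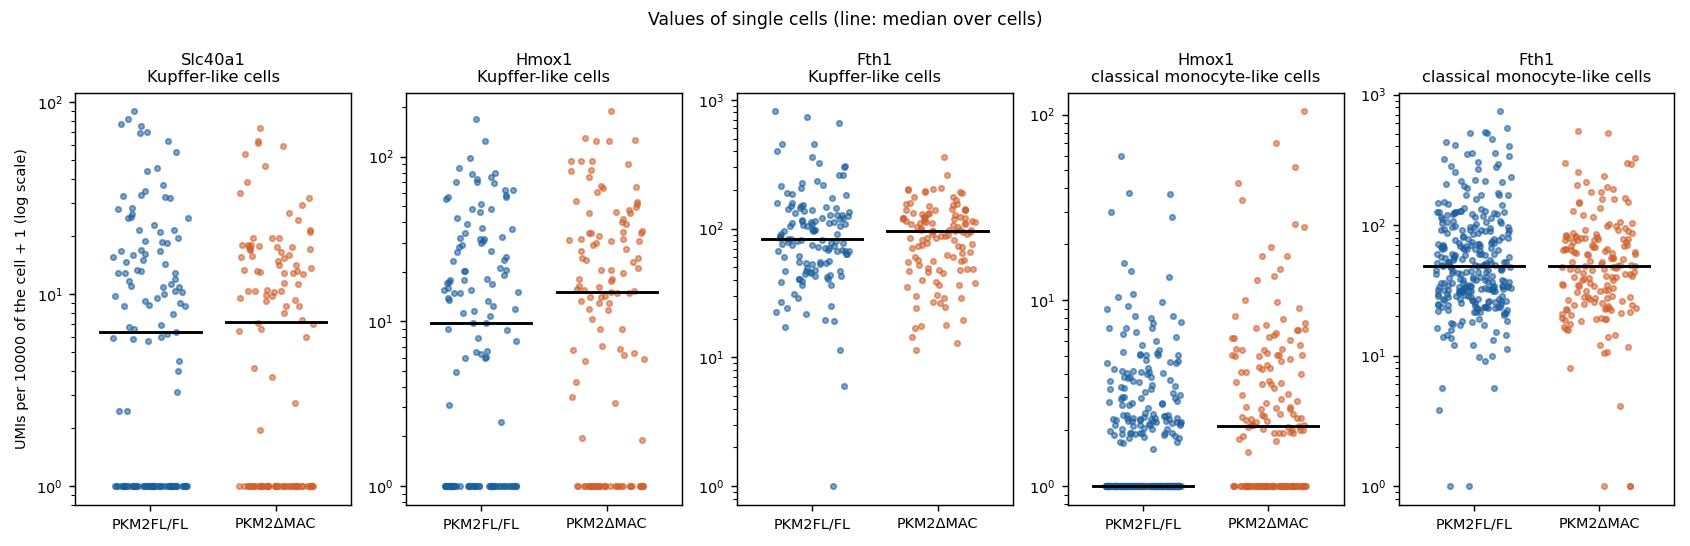
Each point is 1 cell, at its UMIs of the gene per 10000 UMIs of the cell, plus 1, on a log axis, for PKM2FL/FL (blue) and PKM2ΔMAC (orange). The black line is the median over cells. Kupffer-like Fth1 has a few very high PKM2FL/FL cells while its median is lower (81.6 against 94.0), and monocyte-like Hmox1 has a median of 0 in PKM2FL/FL and 1.11 in PKM2ΔMAC.

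Slc40a1, the iron exporter, was high in 3 gates. Kupffer-like cells stood at 829 CPM (180 UMIs) in PKM2FL/FL and 997 CPM (218 UMIs) in PKM2ΔMAC, endothelial-like cells at 292 and 184 CPM (76 and 32 UMIs), and neutrophil-like cells at 230 and 196 CPM (411 and 352 UMIs). The Kupffer-like levels lie above both others, which overlap each other, and every other compared gate was under 28 CPM. Neutrophil-like cells, being many, held 54.4% and 49.3% of all Slc40a1 UMIs. A Slc40a1 UMI was found in 36.3% and 33.4% of neutrophil-like cells (10.3% and 8.60% after thinning, median depth 2192 and 2366 UMIs) and in 58.1% and 57.6% of Kupffer-like cells (38.0% and 33.9% after thinning). In B-like cells, at greater depth, the share was 0.368% and 0.924%, and in monocyte-like cells 1.02% and 1.82%.

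The Kupffer-like ratio of Slc40a1 was 1.20 (0.983 to 1.47) and depended on how cells were weighted. It was 1.49 among cells of at least 500 genes, 0.822 as the mean of the cells' own CPM, 0.754 after thinning and 0.962 without the 3 leading cells of each library. In PKM2ΔMAC 1 cell held 31 UMIs, 14.2% of the total, whereas the top PKM2FL/FL cell held 10. In endothelial-like cells Slc40a1 was called lower, with a ratio of 0.630 (0.403 to 0.964). That gate differed in depth, with a median of 2261 UMIs in PKM2FL/FL and 916 in PKM2ΔMAC, and in RNA of other cells. After thinning to 500 UMIs the Slc40a1 ratio was 0.841 (0.366 to 2.0) and not called, and the share of cells with a UMI went from 49.2% and 20.2% to 15.9% and 12.8%. Hmox1 and Blvrb had too few UMIs for a ratio there after thinning. Its 8 hepatocyte genes summed to 273 and 57.5 CPM, its 8 platelet genes to 760 and 535 CPM, and its 8 Kupffer-like markers to 61.5 CPM (7 detected) and 34.5 CPM (4 detected), with Timd4 at 0 in both. Their part in the 3 endothelial calls, Slc40a1, Hmox1 and Blvrb, was not tested. Slc40a1 was called higher in B-like cells on 9 and 23 UMIs (1.20 and 3.34 CPM, ratio 2.78, 1.24 to 6.82), a level at which 8 of 2171 and 22 of 2380 cells had a UMI. The 8 endothelial-like markers moved with it in B-like cells, at 8.82 and 36.05 CPM, all detected in both libraries. The Kupffer-like markers (31.2 and 20.5 CPM) and the neutrophil-like markers (76.5 and 53.9 CPM) went the other way. The part of these markers was not tested.

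Haemoglobin RNA was counted in Kupffer-like cells after values had been seen, since these genes serve red cell iron. The haemoglobin genes gave 879 UMIs in PKM2FL/FL, 868 of them in 2 cells, and 2 UMIs in PKM2ΔMAC. Without those 2 cells the Kupffer-like ratios were 1.19 for Slc40a1, 1.18 for Hmox1, 0.784 for Fth1 and 1.07 for Blvrb, each within its interval above. After thinning to 500 UMIs, Slc40a1 and Hmox1 were seen together in 23 of 129 PKM2FL/FL and 26 of 118 PKM2ΔMAC Kupffer-like cells, Slc40a1 alone in 26 and 14, Hmox1 alone in 35 and 30, and neither in 45 and 48.

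Tfrc, the transferrin receptor, was low in Kupffer-like cells. It had 2 and 4 UMIs in Kupffer-like cells (9.21 and 18.3 CPM), too few for a ratio. Plasmacytoid dendritic-like cells, the main producers of type I interferon, were highest, at 104 CPM (123 UMIs) and 106 CPM (195 UMIs), a ratio of 1.02 (0.809 to 1.29). All other compared gates were at or under 37.1 CPM and overlapped their neighbours in the order. Tfrc was called lower in neutrophil-like cells, at 16.2 and 6.67 CPM (29 and 12 UMIs), with a ratio of 0.412 (0.192 to 0.833). In that gate 21.1% of all genes were called lower and 1.72% higher, and the call was lost when ratios were centred on the median of all genes. Lymphocyte markers moved with Tfrc in that gate, the 8 of NK or innate lymphoid-like cells from 213 to 75.1 CPM, the 7 of B-like cells from 147 to 75.1 CPM and the 5 of T-like cells from 103 to 74.0 CPM, all detected in both libraries. Their part was not tested. T-like cells were at 24.8 and 31.8 CPM (265 and 299 UMIs, ratio 1.28) and B-like cells at 36.4 and 27.0 CPM (272 and 186 UMIs, ratio 0.744), neither called. Cells with at least 3 of 8 cycling genes held 38.6 and 40.2 CPM, against 31.0 and 31.9 CPM in the rest, and the counting intervals of cycling and other cells overlap in PKM2FL/FL (31.4 to 47.0 and 29.5 to 32.7 CPM) and in PKM2ΔMAC (32.9 to 48.7 and 30.1 to 33.7 CPM).

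Slc11a1, the phagosomal metal transporter, was found in phagocytes. Neutrophil-like cells were at 236 CPM (423 UMIs) in PKM2FL/FL and 215 CPM (386 UMIs) in PKM2ΔMAC, Kupffer-like cells at 166 and 142 CPM (36 and 31 UMIs) and classical monocyte-like cells at 109 and 114 CPM (292 and 154 UMIs). The libraries of these gates do not overlap, though the counting intervals of Kupffer-like and monocyte-like cells do. The ratios were 0.909 (0.790 to 1.05), 0.855 (0.512 to 1.42) and 1.05 (0.857 to 1.28), and none was called. All other compared gates were under 20 CPM. Slc11a1 was called lower in B-like cells on 32 and 13 UMIs (ratio 0.442), but 1 PKM2FL/FL cell held 7 of the 32, and the call was lost without the leading cell of each library (0.521), with a lead of at least 2 markers (0.797) and with clusters (0.98).

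**Figure D3:**
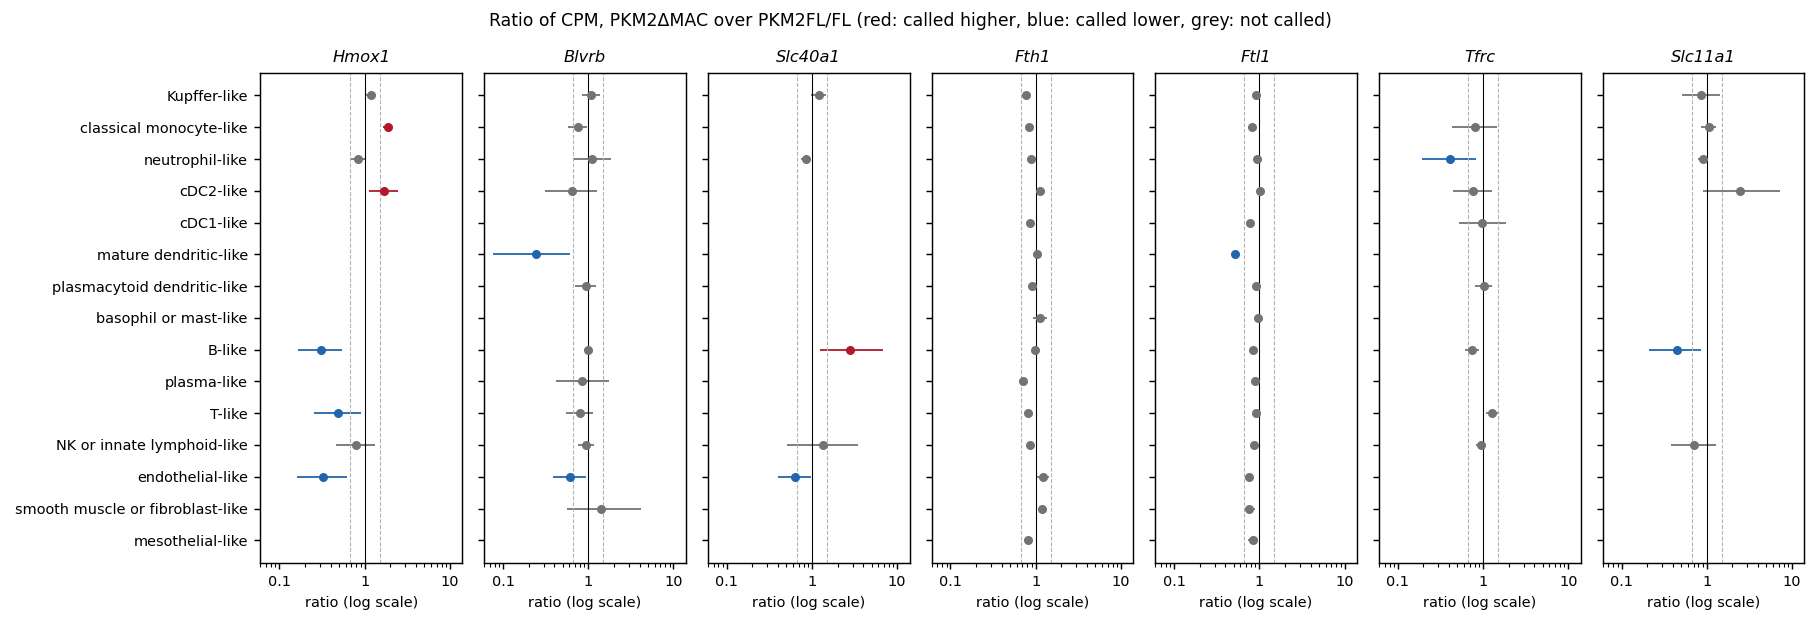
Ratio of CPM in PKM2ΔMAC over PKM2FL/FL for 7 genes, on a log axis, with exact 95% counting intervals; dashed lines mark 1.5-fold and a gap means under 20 UMIs. Cd163, with 3 ratios and no call, is not drawn. Grey points are not called; red points (Hmox1 in monocyte-like and cDC2-like cells, Slc40a1 in B-like cells) are called higher and the 9 blue ones lower.

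The monocyte-like and Kupffer-like gates each hold cells of different states. Each gate was split by 1 or 2 genes, chosen after values had been seen, and detection of these genes depends on a cell's depth. Gpnmb and Trem2 mark lipid-associated macrophages, a state described in fatty liver. Monocyte-like cells with a UMI of either gene (68 and 36 cells) held Hmox1 at 231 CPM (159 UMIs) and 732 CPM (233 UMIs), a ratio of 3.16 (2.58 to 3.90). Monocyte-like cells with neither (226 and 129 cells) held it at 203 and 287 CPM (404 and 295 UMIs), a ratio of 1.41 (1.21 to 1.65), under the 1.5-fold needed for a call, where 5.06% of all genes were called lower and 4.3% higher. Hmox1 was detected in 52.9% and 77.8% of the former and in 43.4% and 54.3% of the latter. In the former, 1 PKM2FL/FL cell held 71 of the 159 UMIs and 1 PKM2ΔMAC cell 81 of the 233. Without the 3 leading cells of each library the ratios were 3.30 (2.40 to 4.55) and 1.43 (1.18 to 1.72). The intervals of the ratios do not overlap, though the difference between them was not tested over replicates.

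In the monocyte-like cells with Gpnmb or Trem2 no other gene was called. Fth1 had a ratio of 0.919, Ftl1 of 0.783, Blvrb of 0.833 and Slc11a1 of 1.01, and Tfrc had 12 UMIs in PKM2FL/FL and 0 in PKM2ΔMAC. So 1 of the 5 genes with a ratio was called there, where 6.58% of all genes were called lower and 4.88% higher. The values differ when the cells with Gpnmb or Trem2 of the lipid-associated macrophage-like gate, 19 in PKM2FL/FL and 1 in PKM2ΔMAC, are added (87 and 37 cells). Fth1 was then at 17970 and 9721 CPM (ratio 0.541), Ftl1 at 13700 and 7686 CPM (0.561) and Blvrb at 267 and 83.5 CPM (0.313), all called lower, and Hmox1 at 327 and 724 CPM (2.21), called higher. In those cells 4 of 5 genes with a ratio were called, against 8.17% of all genes called lower and 6.01% higher. The added cells came almost all from PKM2FL/FL, so the libraries then held unlike mixes of cells. The lower calls of Fth1, Ftl1 and Blvrb, absent without the added cells, are therefore not a result about these genes. Tfrc, at 23.2 CPM in PKM2FL/FL, had no UMI in PKM2ΔMAC (3 counts would amount to 9.28 CPM) and so got no ratio. The shares over all genes do count genes with no UMI in 1 library, so the rules differ there. Within each library, monocyte-like cells with Gpnmb or Trem2 had more ferritin RNA than those without. Fth1 was at 10700 against 8044 CPM in PKM2FL/FL and 9824 against 6624 CPM in PKM2ΔMAC, and Ftl1 at 9676 against 6135 and 7573 against 5308 CPM.

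Timd4 marks long-lived resident Kupffer cells. With Timd4 detected (45 and 56 cells), Slc40a1 was at 1030 and 1478 CPM (87 and 166 UMIs, ratio 1.44, 1.10 to 1.88) and Fth1 at 7636 and 8716 CPM (ratio 1.14). Without it (84 and 62 cells), Slc40a1 was at 701 and 489 CPM (93 and 52 UMIs, ratio 0.698, 0.487 to 0.991) and Fth1 at 12420 and 7626 CPM (ratio 0.614, 0.564 to 0.668). The ratios of both genes lay on opposite sides of 1 in the 2 sets. Without the 3 leading cells of each library the Slc40a1 ratios were 1.19 (0.850 to 1.68) and 0.646 (0.427 to 0.961), whose intervals overlap, and the Fth1 ratios 1.17 (1.05 to 1.30) and 0.698 (0.634 to 0.768), under which Fth1 was no longer called. The differences between the sets were not tested over replicates. Fth1 in cells without Timd4 was the 1 called pair, where 9.22% of all genes were called lower and 5.19% higher. With Timd4 no pair was called, against 6.81% and 8.13% of all genes. Summed Hmox1 was higher with Timd4 in both libraries, at 2486 against 1258 CPM in PKM2FL/FL and 2609 against 1514 CPM in PKM2ΔMAC. The median over cells kept that order in PKM2FL/FL but not in PKM2ΔMAC. In PKM2ΔMAC the median was 13.9 Hmox1 UMIs per 10000 with Timd4 and 15.8 without. Cells with Timd4 were deeper, with medians of 1439 and 1594.5 UMIs against 957.5 and 852 UMIs, and detection of a marker depends on depth.

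**Figure D4:**
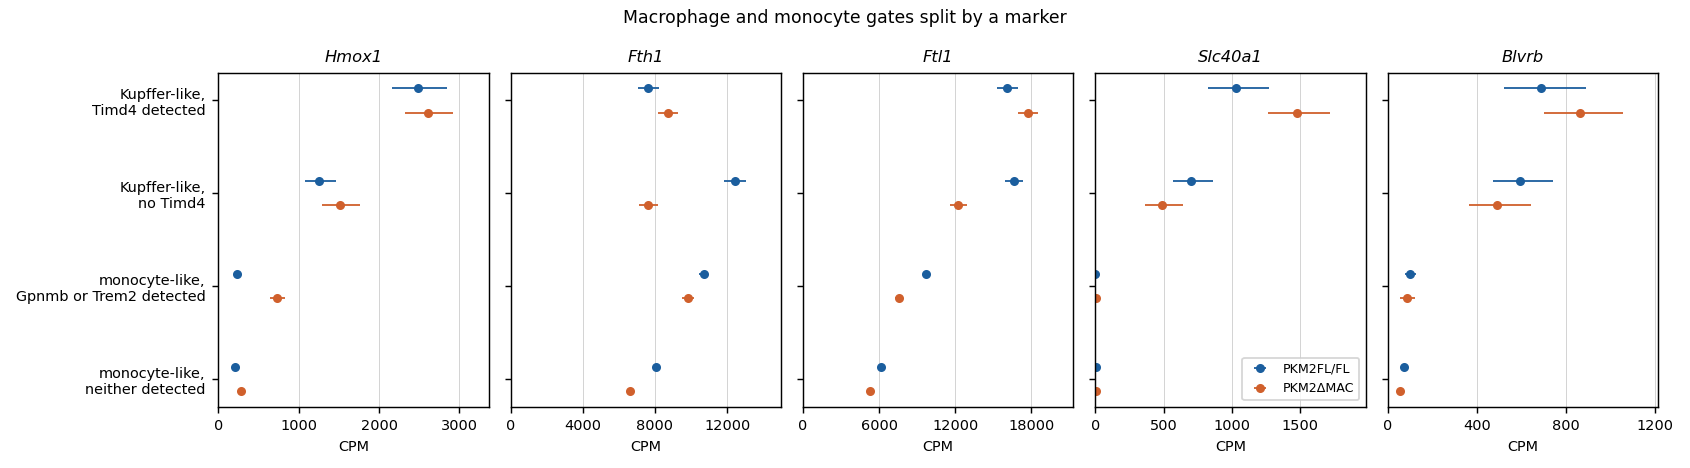
CPM of 5 genes in Kupffer-like cells with and without a Timd4 UMI and in classical monocyte-like cells with and without a Gpnmb or Trem2 UMI, for PKM2FL/FL (blue) and PKM2ΔMAC (orange), with exact Poisson 95% intervals and axes from 0. Hmox1 is separated most in monocyte-like cells with Gpnmb or Trem2 (231 and 732 CPM), and Fth1 in Kupffer-like cells without Timd4 (12420 and 7626 CPM).

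The wider pathway was read from 59 further genes in 7 lists covering iron transport, storage, regulation, heme breakdown and synthesis, plasma and granule proteins, and oxidative stress genes. In Kupffer-like cells 16 of these had enough UMIs and none was called. Among those above 100 CPM were Trf, which encodes transferrin (327 and 380 CPM), Slc48a1, the exporter of heme from the phagolysosome (212 and 160 CPM), Hfe, a partner of the transferrin receptor (226 and 178 CPM), and Spic, the transcription factor of iron-recycling macrophages (106 and 101 CPM). Their ratios ran from 0.756 to 1.16, and each interval included 1. The other genes of the lists above 100 CPM in Kupffer-like cells were Lrp1, Pcbp1, Pcbp2, Tax1bp1, Nfe2l2, Hmox2, Blvra, Txnrd1, Gsr and Prdx1, with ratios from 0.674 to 1.40.

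In classical monocyte-like cells 38 of the 59 genes were read, with 3 called higher and 3 lower, against 4.08% and 5.96% of all genes. Spic was higher, at 7.84 and 24.5 CPM (21 and 33 UMIs, ratio 3.13, 1.75 to 5.68). So were Flvcr1, long described as a heme exporter (26.9 and 44.5 CPM, ratio 1.66), and Lcn2, the siderophore-binding lipocalin (45.9 and 95.01 CPM, ratio 2.07). Lcn2 was also called higher in neutrophil-like, T-like and NK or innate lymphoid-like cells, and lower in plasmacytoid dendritic-like and plasma-like cells. The 8 neutrophil-like markers in the monocyte-like gate summed to 144 CPM (8 detected) and 187 CPM (7 detected, Ly6g at 0). Their part in the Lcn2 difference was not tested. Slc48a1 (68.3 and 45.3 CPM, ratio 0.663), Ireb2, an iron regulatory protein (24.3 and 14.1 CPM, ratio 0.581), and Srxn1, a sulfiredoxin (26.9 and 9.65 CPM, ratio 0.359), were lower. Nfe2l2 and Bach1, the activator and the heme-sensing repressor of Hmox1, were at 796 and 603 CPM (ratio 0.757) and 243 and 257 CPM (ratio 1.06), neither called.

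In neutrophil-like cells 34 of the 59 were read, with 1 called higher and 8 lower, against a background of 1.72% and 21.1%. Lcn2 was higher, at 1602 and 3814 CPM (2868 and 6858 UMIs, ratio 2.38, 2.28 to 2.49). The 8 lower were Steap4, a metalloreductase (ratio 0.259), the oxidative stress genes Gclm, Gclc, Txnrd1 and Slc7a11 (0.439 to 0.625), their activator Nfe2l2 (823 and 492 CPM, ratio 0.597) with its inhibitor Keap1 (0.523), and Ppox of heme synthesis (0.593). The share called lower, 8 of 34, is near the background of this gate and is not a result about these genes.

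The patterns over gates were set beside those of other genes, as Pearson's r of log2(CPM + 10) over the 15 compared gates with both libraries summed, among 3950 genes that reach 100 CPM in a gate, with the gate markers left out and ranked apart. These are descriptions over gates that share libraries and differ in depth. Slc40a1 and Hmox1 resembled each other (r = 0.798). The genes most like Slc40a1 were Clec1b (0.836), Plod1 (0.824) and Tcn2 (0.820), and those most like Hmox1 were Msr1 (0.884), Slc7a7 (0.878) and Tmem14c (0.874). Fth1 was most like Bri3 (0.811), Prdx5 (0.786) and Slc11a1 (0.784), and Ftl1 most like Sh3glb1 (0.925), Ninj1 (0.900) and Gng5 (0.887), while the ferritin chains had an r of 0.564 with each other. Cd163 was most like Cd300e (0.959), Fabp7 (0.941) and Folr2 (0.938), while the gate markers Mmp12 (0.970), C1qa (0.958) and C1qb (0.945) reached like values, and Slc11a1 most like Pla2g7 (0.960), Msrb1 (0.947) and Pilrb2 (0.947). Blvrb was most like Vcam1 (0.836), Lgmn (0.830) and Dram2 (0.800), and genes like Tfrc included Gpr171 (0.899) and Cxxc5 (0.865). The r of Tfrc with each of the other 7 genes was below 0, from −0.60 with Ftl1 to −0.02 with Cd163.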

How the data were processed

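The deposited values are whole UMI counts of a gene in a barcode. Per the file headers, Cell Ranger 6.0.0 wrote them for the authors. The submitters' processing notes name Seurat 4.3.0 and the build mm10. No deposited annotation of cells was used. Barcodes with at least 300 genes and at most 20% mitochondrial UMIs were kept, and doublets marked by Scrublet as in scanpy 1.11.5 (expected rate 0.08; 4.875% and 3.717% of cells marked) were left out. Each cell went to the gate whose markers it showed most. UMIs were summed per gate and library and divided by the gate's total. Intervals are exact (Poisson for levels, conditional binomial for ratios), and intervals and limits cover counting error only. Of the 17 barcodes found in both libraries 14 were kept. Calculations used scipy 1.17.1, numpy 2.4.6 and pandas 2.3.3 under Python 3.11.15, clusters leidenalg 0.10.2 and figures matplotlib 3.10.9. The ratio and call were tried on simulated gate totals drawn with Poisson error only. That trial checks the calculation and does not cover the uneven spread of UMIs over cells. The genes, lists and likeness rule were chosen with earlier results of these data known. All 8 genes are named, with listed genes that were called or stood above 100 CPM in the gates described, and the 3 most alike genes, except 1 for Tfrc that is not reported here. Alternatives changed the marker number, lead, clustering, doublets, cell filters, depth, total, centring and call rule. Those leaving out leading cells or haemoglobin-rich cells, and the splits by Timd4 and by Gpnmb or Trem2, were added after seeing the data.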

Additional observations from a re-analysis of the deposited data

Results flagged for a closer look

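Hmox1 was called in opposite directions in different gates. Its ratio of PKM2ΔMAC over PKM2FL/FL was 1.87 in classical monocyte-like and 1.68 in cDC2-like cells, and 0.305 in B-like, 0.492 in T-like and 0.327 in endothelial-like cells. The Hmox1 calls in cDC2-like, B-like, T-like and endothelial-like cells were each lost under some of the alternatives given above. Slc40a1 likewise had a ratio of 2.78 in B-like cells, on 9 and 23 UMIs, and 0.63 in endothelial-like cells, where the call was lost after thinning. With 1 library per genotype, neither difference between gates was tested.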

How the results depend on the processing

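No paired analysis was possible because each genotype has 1 library, and for the same reason no replicate could be left out. The Slc40a1 ratio in Kupffer-like cells (1.20) became 0.97 with a lead of at least 2 markers, 1.49 with at least 500 genes per cell, 0.822 as the mean of the cells' own CPM, 0.754 after thinning to 500 UMIs and 0.962 without the 3 leading cells of each library. The Fth1 ratio there (0.775) became 0.708 with clusters in place of gates, 0.829 with no doublets removed, 0.845 without the leading cell and 0.888 without the 3 leading cells of each library. The Ftl1 ratio (0.917) became 0.857 with the lead and 0.86 with no doublets removed, and the Cd163 ratio (1.05) became 0.437 after thinning and 0.618 without the 3 leading cells. Hmox1 in B-like cells turned to 1.21 with clusters. Of 9 pairs called lower and 3 higher, thinning left 1 lower and 1 higher among the 46 pairs with enough UMIs (3 of the 12 called pairs had a value then, and 2 of these kept the call), 5 were called lower without the 3 leading cells, and 1 was called higher at 2-fold. Of the 12 calls, 12 were kept with at least 4 markers, 11 with at least 2, 10 when centred on all genes, and 7 of the 10 with a value under clusters, where no cluster was mature dendritic-like and 5 other pairs were called (Tfrc and Blvrb in monocyte-like, Blvrb in cDC2-like, Fth1 and Ftl1 in endothelial-like cells). The lead added Fth1 in plasma-like and Ftl1 in smooth muscle or fibroblast-like cells, and keeping doublets added Slc11a1 in cDC2-like cells. The mean of the cells' own CPM has no interval and gave no calls. The causes were not tested. Depth limits the pairs under 20 UMIs.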

Other observations

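The 20 lipid-associated macrophage-like cells of the PKM2FL/FL library held Hmox1 at 621 CPM (166 UMIs), Blvrb at 715 CPM (191 UMIs) and Slc11a1 at 374 CPM (100 UMIs). These Blvrb and Slc11a1 levels lay above those of every compared gate, whereas Hmox1 lay below Kupffer-like cells. Slc40a1 was at 15.0 CPM (4 UMIs) and Cd163 had no UMI in these cells. The 3 PKM2ΔMAC cells in that gate, which had no Gpnmb UMI, held 1, 4, 1, 15 and 0 UMIs of these genes in the same order, too few cells for a comparison.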
